A study of Mus musculus with 3 samples.

Results

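RNA levels of 10 secreted or cell-surface matrix genes were described in cultured mouse hepatic stellate cells of 3 genotypes. The genes were the thrombospondins Thbs1, Thbs2 and Thbs3, tenascin-C (Tnc), periostin (Postn), osteopontin (Spp1), Sparc, Cthrc1, fibronectin (Fn1) and fibroblast activation protein (Fap). They were taken by name, with earlier results of these data known. All 10 were matched to an Entrez number and listed, among 17870 genes listed in any library. The 3 libraries were labelled TLR4-/- (called the TLR4-labelled library here), CD44-/- and wild type, with 1 library each. All came from primary hepatic stellate cells of male C57BL/6 mice 24 weeks old, depleted of liver macrophages with beads against CD11b. The cells were cultured for 3 days with serum and for 24 h without it, and no other treatment is labelled. The sources used here give neither the knockout alleles nor whether animals were pooled. The series' design text speaks of triplicates and lists TLR4-/- again without naming CD44-/-, whereas the sample labels name each genotype once. Whether a library holds RNA of several cultures is not stated. With 1 library per genotype no test was run, and every interval below covers counting error only.

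Matricellular proteins are secreted into the matrix but act mainly as signals, by binding cell receptors, growth factors and proteases, and they are scarce in resting tissue and abundant at sites of injury. Hepatic stellate cells, the vitamin A-storing pericytes of the liver sinusoid, make them as they turn into matrix-producing myofibroblasts on injury or on plastic. Several of these proteins bind the receptors that were targeted here. Osteopontin is a ligand of CD44, while tenascin-C and the alternatively spliced extra domain A of fibronectin are known activators of TLR4. Fibronectin is also a structural matrix protein, and Fap is a membrane serine protease of activated fibroblasts rather than a matricellular protein.

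Promoter sequence is shown for Postn and Tnc, which were below wild type in both knockout-labelled libraries, and for Thbs2 and Spp1, which differed most between those libraries. The starts shown were picked after the motif matches were seen, and each window shown holds a TATA match. The 4 windows without one are not printed, namely those of Thbs3, of Sparc, of the upstream Postn start and of the downstream Spp1 start. For Postn and Tnc the window shown precedes the downstream of the listed starts, which lies inside the gene span given below. Each window is the 250 bases before a RefSeq transcription start in GRCm38.p6, read 5′ to 3′ on the gene's strand, and capitals mark motif matches. The Postn window is chr3:54360857-54361106 on the plus strand, the Tnc window chr4:64046937-64047186 on the minus strand, the Thbs2 window chr17:14694263-14694512 on the minus strand and the Spp1 window chr5:104434861-104435110 on the plus strand.
Postn: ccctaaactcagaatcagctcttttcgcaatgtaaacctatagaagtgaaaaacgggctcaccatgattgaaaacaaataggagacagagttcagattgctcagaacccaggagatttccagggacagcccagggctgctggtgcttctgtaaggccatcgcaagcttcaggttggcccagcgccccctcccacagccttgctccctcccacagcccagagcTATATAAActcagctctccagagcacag
Tnc: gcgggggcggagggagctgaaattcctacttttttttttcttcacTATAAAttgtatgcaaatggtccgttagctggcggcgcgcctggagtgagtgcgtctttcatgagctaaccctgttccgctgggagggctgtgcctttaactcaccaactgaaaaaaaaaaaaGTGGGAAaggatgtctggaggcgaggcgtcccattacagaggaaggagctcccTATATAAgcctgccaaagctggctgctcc
Thbs2: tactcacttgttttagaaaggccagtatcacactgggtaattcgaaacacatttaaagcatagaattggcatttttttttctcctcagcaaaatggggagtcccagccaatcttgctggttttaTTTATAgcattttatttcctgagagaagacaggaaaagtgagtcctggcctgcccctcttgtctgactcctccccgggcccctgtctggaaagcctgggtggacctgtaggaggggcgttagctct
Spp1: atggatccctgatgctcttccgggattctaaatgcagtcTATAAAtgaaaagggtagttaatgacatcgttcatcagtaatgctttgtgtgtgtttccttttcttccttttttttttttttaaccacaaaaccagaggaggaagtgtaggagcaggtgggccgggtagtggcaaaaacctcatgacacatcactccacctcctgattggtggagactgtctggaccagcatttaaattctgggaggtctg

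The motifs searched on both strands were a TATA box (TATAAA or TATATAA), an AP-1 element (TGANTCA), a TEAD element (GGAATG) and an RBPJ element (GTGGGAA). The promoter table held 9 windows for 6 of the 10 genes, with 2 starts each for Postn, Tnc and Spp1. A TATA box match occurred in 5 of those windows, but the pair of Tnc windows overlap and share a match. Such a match was in 13.8% of all 32851 windows. The motifs were chosen after these promoters were read, so nothing is drawn from the shares of any of them. It lay from 28 to 21 bases before the start shown for Postn, where the pair of TATA spellings overlap, and from 29 to 23 bases before the start shown for Tnc, which held another from 205 to 200. In Thbs2, where it reads on the other strand, and in Spp1 it lay further off, beginning 126 and 211 bases before the start. The RBPJ letters occurred in 1 window, that of Tnc, at 82 to 76 bases before the start, against 5.42% of all windows. The AP-1 and TEAD letters occurred in 0 of the 9 windows, against 6.75% and 12.6% of all windows. These matches describe letters and are not binding sites.

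Libraries held 23659074 expected counts in the TLR4-labelled library, 21460725 in CD44-/- and 24078669 in wild type. Reads of Cd44 were 253 in CD44-/-, against 1717 in the TLR4-labelled library and 1860 in wild type. Tlr4 kept 1000 reads in the TLR4-labelled library, against 1393 in CD44-/- and 1468 in wild type. A gene-level value can include reads outside a deleted part, so Tlr4 does not settle that genotype, and the library is called TLR4-labelled throughout. All 12 stellate cell markers reached 1 FPKM in every library, led by decorin (Dcn) at 2951, 4337 and 2614 FPKM in the TLR4-labelled library, CD44-/- and wild type. In the TLR4-labelled library 2 of the 12 were at least 2-fold below wild type and 0 above it, with a median log2 ratio of FPKM + 1 of -0.34. They were Colec11, at 14.1 FPKM against 94.4 in wild type, and Acta2, at 81.5 against 234.7. In CD44-/- 1 was lower and 0 higher, with a median of 0.20, and it was Col1a1, at 205.0 FPKM against 588 in wild type. Of the 12, 8 stood above wild type in CD44-/-, Col3a1 among them at 696 FPKM against 384. Of genes reaching 1 FPKM in either library compared, 2.69% were at least 2-fold lower and 1.04% higher in the TLR4-labelled library. The shares in CD44-/- were 1.97% lower and 2.24% higher.

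Levels are given in FPKM, a fragment number corrected for transcript length and sequencing depth, which allows genes to be compared within a library. Sparc, a collagen-binding glycoprotein, was the most abundant of the 10, at 2801 FPKM in the TLR4-labelled library, 2287 in CD44-/- and 2937 in wild type. It ranked 4, 7 and 4 among all listed genes in those libraries. Sparc alone made up 84.0%, 82.0% and 80.0% of the summed FPKM of the 10 genes. Without it, the other 9 genes summed to 532 FPKM in the TLR4-labelled library, 503 in CD44-/- and 736 in wild type. In reads, the 10 genes took 0.912%, 0.822% and 1.03% of those libraries. Below Sparc, 5 genes (Fn1, Postn, Spp1, Tnc and Thbs1) exceeded 30 FPKM in every library, and Thbs2 exceeded 10. The remaining 3 stayed under 3 FPKM in every library (Cthrc1, Thbs3 and Fap), and Fap under 1.

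**Figure D1:**
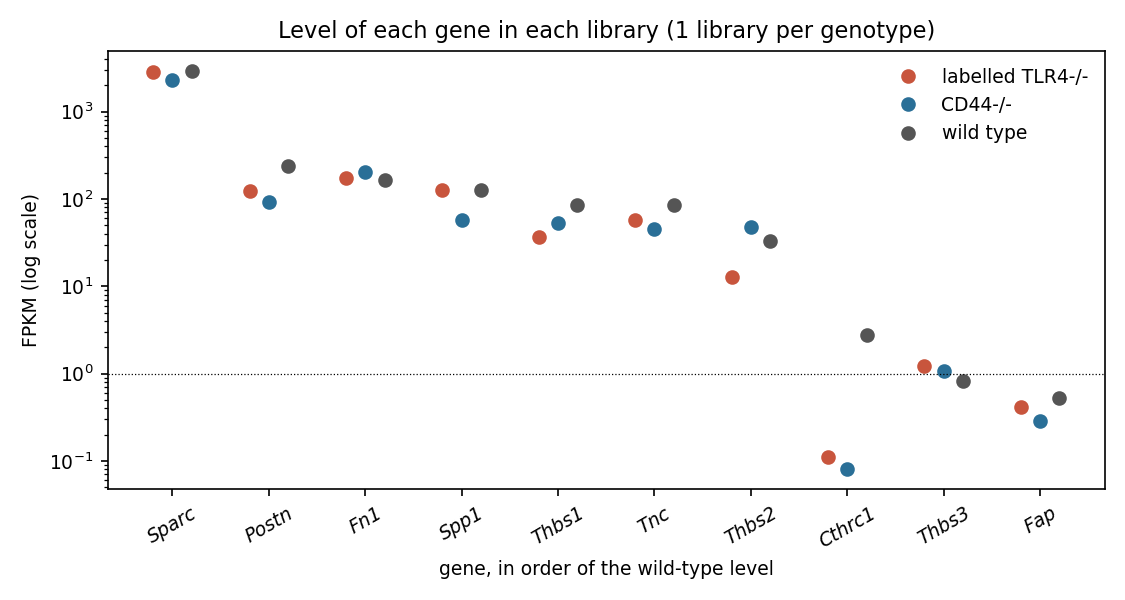
FPKM of each gene (log axis) in the TLR4-labelled library, in CD44-/- and in wild type, 1 point per library, with genes in order of the wild-type level and a dotted line at 1 FPKM. Sparc lies above 2000 FPKM in each library, and Cthrc1 reaches 1 FPKM in wild type alone.

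Relative to wild type, a gene was counted as higher or lower when FPKM + 1 differed at least 2-fold, among genes with an FPKM of at least 1 in either library, called measured. In the TLR4-labelled library, 3 of 9 measured members were at least 2-fold lower (Thbs1, Thbs2 and Cthrc1) and 0 higher. Over all 12098 measured genes the shares were 2.69% lower and 1.04% higher. In CD44-/-, 3 of 9 were at least 2-fold lower (Postn, Spp1 and Cthrc1) and 0 higher, against 1.97% lower and 2.24% higher of 12247 measured genes. The median log2 ratio of the measured members was -0.56 in the TLR4-labelled library and -0.67 in CD44-/-, beside 0.03 and 0.03 over all measured genes. Over all 10 members, with Fap included, the medians were -0.34 and -0.51. Cthrc1 reached 1 FPKM in wild type alone and Thbs3 in the knockout-labelled libraries alone, so each entered through the libraries where it was higher. The members and the lists were chosen with earlier results of these data known. Nothing is therefore drawn from their counts set beside those of all measured genes. Both comparisons use the same wild-type library, so their results are not independent. In these bulk cultures, fewer cells of a type and less RNA per cell cannot be told apart.

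**Figure D2:**
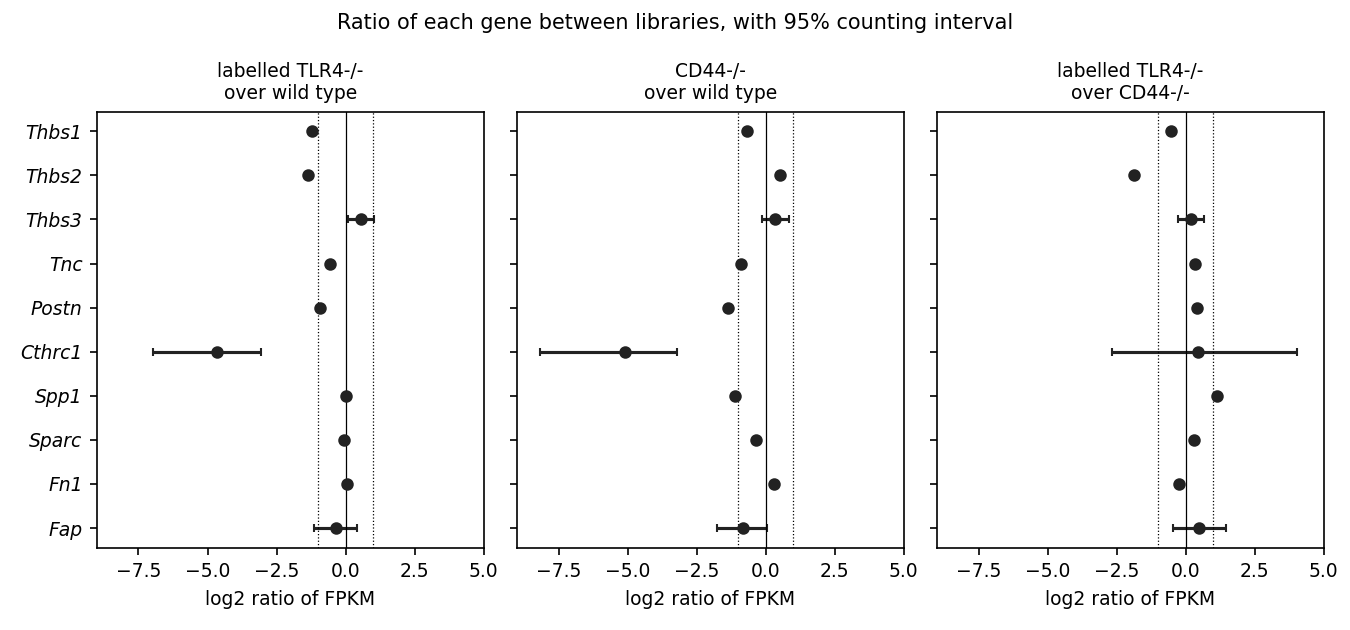
Log2 ratio of FPKM for each gene in the TLR4-labelled library over wild type, in CD44-/- over wild type and in the TLR4-labelled library over CD44-/-. Bars are 95% counting intervals, dotted lines mark 2-fold, and there is 1 library per genotype. The wide bars of Cthrc1 come from 3 and 2 reads in the knockout-labelled libraries.

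Thrombospondin-1 and thrombospondin-2 are close relatives that bind CD36 and CD47 and restrain angiogenesis, and thrombospondin-1 also activates latent TGF-beta. Thbs1 (Entrez 21825, chromosome 2, 118111876 to 118127133) stood at 36.4 FPKM in the TLR4-labelled library, 53.2 in CD44-/- and 85.1 in wild type. It was lowest in the TLR4-labelled library, 2.34-fold below wild type (95% interval 2.27 to 2.42), and 1.60-fold below wild type in CD44-/- (1.55 to 1.65). Thbs2 (Entrez 21826, chromosome 17, 14665500 to 14694262) stood at 12.8 FPKM in the TLR4-labelled library, 47.5 in CD44-/- and 33.0 in wild type. It was 2.57-fold below wild type in the TLR4-labelled library (2.43 to 2.71) but 1.44-fold above it in CD44-/- (1.39 to 1.50). Only 1.50% of measured genes had a lower ratio than Thbs2 in the TLR4-labelled library, while 94.1% had a lower ratio in CD44-/-. Thbs2 was the member that differed most between the knockout-labelled libraries among those measured there, 3.70-fold lower in the TLR4-labelled library than in CD44-/- (3.52 to 3.91).

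The balance between the thrombospondins does not depend on scaling between libraries. The ratio of Thbs2 to Thbs1 FPKM was 0.353 (0.334 to 0.372) in the TLR4-labelled library, 0.893 (0.863 to 0.925) in CD44-/- and 0.387 (0.374 to 0.401) in wild type. The TLR4-labelled library and wild type had similar ratios, while in CD44-/- the levels of the pair were closer to equal. Thbs3 (Entrez 21827, chromosome 3, 89215180 to 89226841), which belongs to the subgroup of thrombospondins that includes Comp, was scarce at 1.21 FPKM in the TLR4-labelled library, 1.06 in CD44-/- and 0.83 in wild type. These values rest on 92, 73 and 64 reads. Its ratio to wild type was 1.46 (1.05 to 2.05) in the TLR4-labelled library and 1.28 (0.902 to 1.82) in CD44-/-, and the second interval includes 1.

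Tenascin-C and periostin are matrix proteins of wound edges and scars that bind integrins and each other. Tnc (Entrez 21923, chromosome 4, 63959785 to 64047015) stood at 57.2 FPKM in the TLR4-labelled library, 45.8 in CD44-/- and 85.0 in wild type. It was 1.49-fold (1.45 to 1.53) and 1.86-fold (1.81 to 1.91) below wild type in those knockout-labelled libraries, short of the 2-fold mark in both. Postn (Entrez 50706, chromosome 3, 54359267 to 54391041) stood at 123.9 FPKM in the TLR4-labelled library, 92.5 in CD44-/- and 237.7 in wild type. It passed the mark in CD44-/-, at 2.57-fold below wild type (2.50 to 2.64), and missed it in the TLR4-labelled library, at 1.92-fold below (1.87 to 1.97). Compared directly, the TLR4-labelled library had 1.34-fold more Postn (1.30 to 1.38) and 1.25-fold more Tnc (1.21 to 1.29) than CD44-/-. In order of level, wild type was highest for both genes, the TLR4-labelled library came next and CD44-/- was lowest.

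Cthrc1 (Entrez 68588, chromosome 15, 39076932 to 39087121), a secreted glycoprotein with a short collagen-like repeat that marks activated fibroblasts, was the member furthest below wild type in both knockout-labelled libraries. It had 3 reads in the TLR4-labelled library and 2 in CD44-/-, against 77 in wild type. The ratio to wild type was 0.0397 (0.00800 to 0.120) and 0.0291 (0.00347 to 0.109). Its log2 ratio with 1 added to FPKM was -1.77 and -1.81, and with 0.1 added it was -3.78 and -4.00, so the size on that scale depends on the value added. At 2.79 FPKM in wild type the gene was scarce there too, with 60.3% of listed genes above it.

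Osteopontin, a phosphorylated glycoprotein that binds integrins and CD44, is made by activated stellate cells and also by macrophages and bile duct cells. Spp1 (Entrez 20750, chromosome 5, 104435111 to 104441053) stood at 125.9 FPKM in the TLR4-labelled library, 57.4 in CD44-/- and 125.2 in wild type. The TLR4-labelled library and wild type were close, with a ratio of 1.01 (0.963 to 1.05) and a log2 ratio of 0.01, which was -0.02 under median-of-ratios or TMM scaling. CD44-/-, which lacks most reads of this ligand's receptor, stood 2.18-fold below wild type (2.06 to 2.31). Compared directly, 1 of 8 measured members was at least 2-fold higher in the TLR4-labelled library than in CD44-/- (Spp1, 2.19-fold, 2.07 to 2.32) and 1 was lower (Thbs2). Over all 12168 measured genes those shares were 1.32% higher and 3.44% lower.

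Macrophage markers ran the other way from Spp1 in CD44-/-. Of 15 macrophage markers, 13 reached 1 FPKM in CD44-/- and 6 in wild type, and the list summed to 549 FPKM in CD44-/- and 54.0 in wild type. The 6 that reached 1 FPKM in wild type were between 4.92-fold (Cd68) and 20.5-fold (Cd5l) above it in CD44-/-. Timd4 was at 0 in both. Of 8 bile duct markers, 1 reached 1 FPKM in CD44-/- and 3 in wild type, with a summed level of 3.08 FPKM in CD44-/- and 14.5 in wild type, and Cftr at 0 in both. Sox9 went the other way from that sum, at 1.82 FPKM in CD44-/- and 0.59 in wild type. The part of either cell type in the Spp1 difference was not tested.

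Sparc and Fn1 stood within 2-fold of wild type in both knockout-labelled libraries. Sparc (Entrez 20692, chromosome 11, 55394159 to 55420080) was 1.05-fold below wild type (1.04 to 1.06) in the TLR4-labelled library and 1.28-fold below (1.27 to 1.29) in CD44-/-. Fn1 (Entrez 14268, chromosome 1, 71585473 to 71653280), the fibril-forming glycoprotein on which collagen and other matrix proteins assemble, stood at 173.9 FPKM in the TLR4-labelled library, 204.9 in CD44-/- and 166.2 in wild type. Its ratio to wild type was 1.05 (1.03 to 1.06) in the TLR4-labelled library and 1.23 (1.21 to 1.25) in CD44-/-. In wild type Postn exceeded Fn1, and in both knockout-labelled libraries Fn1 exceeded Postn. The ratio of Fn1 to Postn FPKM was 1.40 (1.37 to 1.44) in the TLR4-labelled library, 2.21 (2.16 to 2.27) in CD44-/- and 0.699 (0.687 to 0.712) in wild type. The ratio of Fn1 to Tnc was 3.04, 4.48 and 1.96 in the same order of libraries. The ratio of Spp1 to Postn was highest in the TLR4-labelled library, at 1.02 (0.980 to 1.05), against 0.620 (0.588 to 0.654) in CD44-/- and 0.527 (0.509 to 0.545) in wild type.

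**Figure D3:**
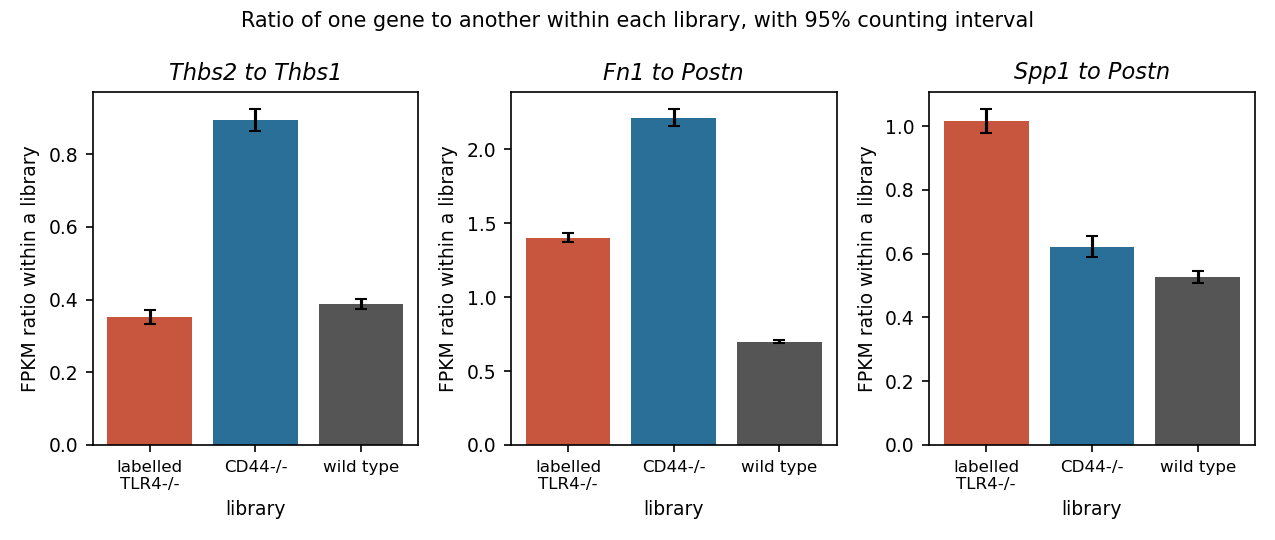
FPKM ratio of Thbs2 to Thbs1, of Fn1 to Postn and of Spp1 to Postn within the TLR4-labelled library, CD44-/- and wild type. Bars start at 0 and error bars are 95% counting intervals, with 1 library per genotype. Thbs2 to Thbs1 stands at 0.893 in CD44-/- and below 0.4 in the other two, while Fn1 to Postn is above 1 in both knockout-labelled libraries and 0.699 in wild type.

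Fap (Entrez 14089, chromosome 2, 62500936 to 62575509) was scarce, with 26 reads in the TLR4-labelled library, 17 in CD44-/- and 34 in wild type. The ratios to wild type were 0.778 (0.448 to 1.34) and 0.561 (0.294 to 1.03), so no difference was detectable at this depth. Of 6 related prolyl peptidases, 3 were measured (Dpp8, Dpp9 and Prep), and 0 reached 2-fold in either comparison with wild type. Most measured genes did not either, with 2.69% lower and 1.04% higher in the TLR4-labelled library. In CD44-/- the shares were 1.97% and 2.24%. Prep, a cytosolic prolyl endopeptidase, stood at 41.5 FPKM in the TLR4-labelled library, 26.9 in CD44-/- and 30.3 in wild type.

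Of the 10 genes, 3 had several RefSeq transcripts in the tables, for which the authors' processing estimated a mean transcript length in each library. Fn1, with 7 transcripts, had mean lengths of 8011.19 bases in the TLR4-labelled library, 8011.89 in CD44-/- and 8023.77 in wild type. Postn, with 3, had 3143.56, 3147.61 and 3146.1 bases. Spp1, with 5, had 1431.19, 1430.7 and 1431.56 bases. The spread across libraries was 0.157% of the length for Fn1, 0.129% for Postn and 0.0601% for Spp1, against a median of 0.247% over 856 genes with several transcripts and at least 20 FPKM in every library. A mean length can hide shifts that cancel, so the alternatively spliced domains of fibronectin were not resolved.

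Among other matricellular genes, Ccn1, Ccn2, Ccn5 and Tgfbi were at least 2-fold below wild type in the TLR4-labelled library, and Ccn2 in CD44-/-. Of 20 listed, 10 were measured. In the TLR4-labelled library 4 of them were lower, 0 higher and 6 between, with a median log2 ratio of -0.61. In CD44-/-, 1 of 10 was lower, 0 higher and 9 between, with a median of -0.11. Over all measured genes, 2.69% were lower and 1.04% higher in the TLR4-labelled library, and 1.97% lower and 2.24% higher in CD44-/-. Tgfbi, a TGF-beta-induced adhesion protein related to periostin, stood at 25.1 FPKM in the TLR4-labelled library, 96.6 in CD44-/- and 68.8 in wild type, low in the first and high in the second as Thbs2 was. Ccn5, a CCN protein that lacks the terminal heparin-binding module, stood at 5.05, 34.5 and 28.1 FPKM in the same order. Ccn1, a heparin-binding integrin ligand, stood at 53.9, 134.4 and 191.8 FPKM, so that it was 3.56-fold below wild type (3.41 to 3.72) in the TLR4-labelled library and 1.43-fold below (1.38 to 1.48) in CD44-/-. Ccn2, the connective tissue growth factor, was at least 2-fold below wild type in both, at 142.3 and 159.2 FPKM against 369.2. Ccn4 was higher in the TLR4-labelled library than in either other one, at 5.22 FPKM in the TLR4-labelled library, 1.51 in CD44-/- and 3.92 in wild type. Without 1 added to FPKM, Ccn4 was 2.60-fold below wild type in CD44-/- (2.17 to 3.12). With it, Ccn4 fell short of the 2-fold mark and was counted as between.

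Receptors of these proteins were mostly within 2-fold of wild type. Of 18 listed, 16 were measured in each comparison. Over all measured genes, 2.69% were at least 2-fold lower and 1.04% higher in the TLR4-labelled library. The shares in CD44-/- were 1.97% lower and 2.24% higher. In the TLR4-labelled library, 2 were at least 2-fold lower (Cd36 and Stab1) and 0 higher, with a median log2 ratio of -0.07. In CD44-/- 2 were lower (Cd44 itself and Stab1) and 1 higher (Cd36), with a median of -0.17. The integrin subunits Itgb1, at 483, 404 and 458 FPKM in the TLR4-labelled library, CD44-/- and wild type, and Itgav, at 63.9, 49.1 and 55.7 FPKM, stayed within 2-fold. So did Itgb5, a partner of Itgav in periostin binding, at 147.4, 172.9 and 261.6 FPKM. Cd36, the thrombospondin and fatty acid receptor, stood at 1.80 FPKM in the TLR4-labelled library, 67.3 in CD44-/- and 7.93 in wild type. It was the receptor furthest from wild type in CD44-/-, 8.48-fold above it (7.82 to 9.21). The macrophage markers, whose sums are given beside Spp1, moved the same way in CD44-/-. In the TLR4-labelled library they summed to 22.5 FPKM, and 3 of 15 reached 1 FPKM, with Clec4f and Timd4 at 0. Stab1, a scavenger receptor that takes up Sparc, stood at 1.11, 3.20 and 9.63 FPKM. Endothelial markers summed to 4.41, 18.7 and 65.7 FPKM. Of the 13, 0 reached 1 FPKM in the TLR4-labelled library, 7 in CD44-/- and 10 in wild type, with 0 of them at 0 in any library. Vwf went the other way from the sum in CD44-/-, at 1.16 FPKM against 0.24 in wild type. The part of these cell types in the Cd36 and Stab1 values was not tested.

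**Figure D4:**
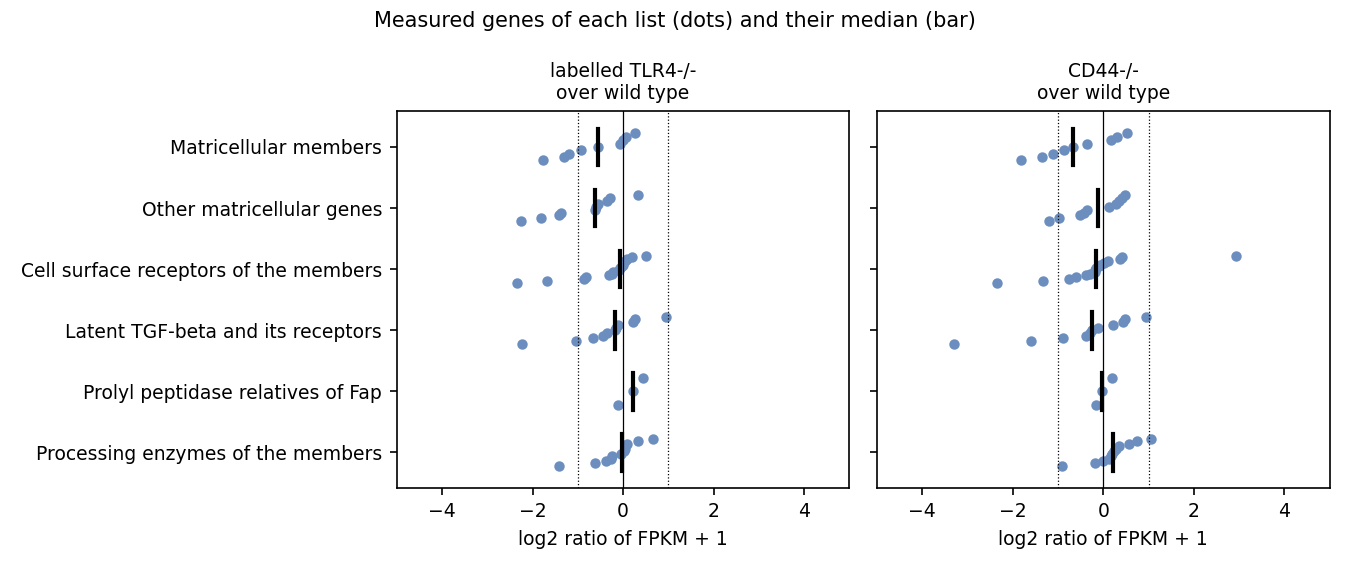
Log2 ratio of FPKM + 1 of each measured gene in the lists, in the TLR4-labelled library over wild type and in CD44-/- over wild type. Each dot is a gene, black bars are list medians and dotted lines mark 2-fold. Other matricellular genes have a median of -0.61 in the TLR4-labelled library and -0.11 in CD44-/-.

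Latent TGF-beta, which thrombospondin-1 activates and which induces several of the members, was described by 11 genes, all measured. In the TLR4-labelled library 2 were at least 2-fold lower, Tgfb2 among them, and 0 higher, and the median log2 ratio was -0.18. In CD44-/- 2 were lower, Ltbp1 among them, and 0 higher, with a median of -0.26. Among all measured genes, the lower shares were 2.69% in the TLR4-labelled library and 1.97% in CD44-/-, and the higher shares 1.04% and 2.24%. Among the ligands, Tgfb1 stood at 54.6, 57.2 and 70.3 FPKM in the TLR4-labelled library, CD44-/- and wild type. In the same order of libraries, Tgfb2 stood at 3.04, 5.46 and 7.37 FPKM and Tgfb3 at 20.6, 11.6 and 22.2. Ltbp1, which tethers latent TGF-beta to fibronectin-containing matrix, stood at 19.5, 9.72 and 31.5 FPKM. Its relative Ltbp4 was highest in the TLR4-labelled library, at 26.2 FPKM, with 17.9 in CD44-/- and 13.0 in wild type. Without 1 added to FPKM, the ratio of Ltbp4 to wild type in the TLR4-labelled library was 2.01 (1.89 to 2.14). With it, Ltbp4 fell short of the 2-fold mark.

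Enzymes that process the members were mostly within 2-fold of wild type. Of 13 listed, 12 were measured. In the TLR4-labelled library 1 was lower and 0 higher (median log2 ratio -0.02), against 2.69% and 1.04% of all measured genes. In CD44-/- 0 were lower and 1 higher (median 0.21), against 1.97% and 2.24% of all measured genes. The higher one was Fam20c, the secretory kinase that phosphorylates osteopontin, at 5.09 FPKM in the TLR4-labelled library, 12.2 in CD44-/- and 5.31 in wild type. The lower one was Plau, the urokinase-type plasminogen activator, at 5.32, 18.0 and 15.8 FPKM in the same order. Adamts1, a protease that cleaves thrombospondins, stood at 38.1, 59.3 and 46.2 FPKM. Mmp3, stromelysin-1, was abundant at 387, 319 and 598 FPKM.

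Markers of other cells that make these proteins were compared as lists. Smooth muscle markers summed to 734 FPKM in the TLR4-labelled library, 601 in CD44-/- and 1006 in wild type, led by Tagln at 514.7, 329.9 and 600.9. Of 6 measured, 2 were at least 2-fold below wild type in the TLR4-labelled library and 1 in CD44-/-. The lower shares over all measured genes were 2.69% and 1.97%. Myocd was at 0 in all 3 libraries. Acta2, Tagln and Des are also made by activated stellate cells, so this list is not specific to smooth muscle. Mesothelial and portal fibroblast markers summed to 87.8, 31.4 and 49.3 FPKM, most of it Fbln2 at 84.1, 21.5 and 41.6. Of these 9 markers, 2 reached 1 FPKM in the TLR4-labelled library, 3 in CD44-/- and 4 in wild type. Wt1, at 0.15, 0.92 and 1.50 FPKM, and Thy1, at 0.12, 0.19 and 1.62, went the other way from the sum in the TLR4-labelled library. In CD44-/- 2 of 5 measured markers stood above wild type, against the sum, Entpd2 among them at 7.09 FPKM against 3.38. Platelet markers summed to 13.6, 26.4 and 10.4 FPKM, led by Pf4, which macrophages also make. Hepatocyte markers summed to 176, 302 and 302 FPKM, nearly all Ass1, while Alb stood at 1.22, 0.16 and 9.14. Of these 10 markers, 2 reached 1 FPKM in the TLR4-labelled library, 1 in CD44-/- and 2 in wild type. Their sum therefore describes Ass1 rather than the list. Lymphocyte markers summed to at most 0.41 FPKM. The part of these lists in the lower Thbs1, Tnc and Postn levels was not tested.

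**Figure D5:**
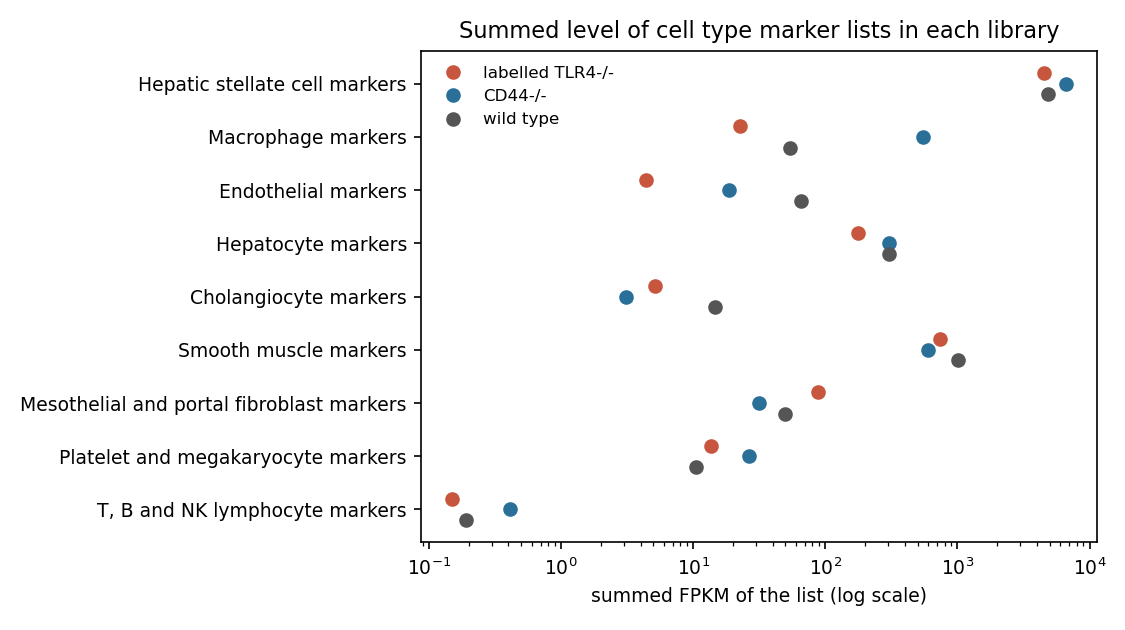
Summed FPKM (log axis) of each cell type marker list in the TLR4-labelled library, CD44-/- and wild type, 1 point per library. Macrophage markers sum to 549 FPKM in CD44-/- and 54.0 in wild type, and endothelial markers to 4.41 FPKM in the TLR4-labelled library and 65.7 in wild type. The hepatocyte sum is nearly all Ass1.

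The genes nearest in pattern to a member were found by the distance between log2(FPKM + 1) values centred on their mean over the 3 libraries. They were sought among 8981 genes with at least 5 FPKM and 50 reads in the highest library. Predicted-gene names (Gm and Rik) and genes without a matched symbol were passed over, so the counts below leave them out. Cthrc1, Thbs3 and Fap fell short of that filter and were left out. Tgfbi was nearest to Thbs2, at a distance of 0.089, and was the 1 gene within 0.1 of it. Adm, which encodes a vasodilator peptide, and Btg2, an antiproliferative gene, were nearest to Thbs1, with 6 genes within 0.1. Errfi1, an inhibitor of the EGF receptor, and Akap12, a kinase-anchoring scaffold, were nearest to Postn, with 3 genes within 0.1. Chac1, a glutathione-degrading enzyme, and Lox, the collagen crosslinking oxidase, were nearest to Spp1, with 4 within 0.1. Lox stood at 40.5 FPKM in the TLR4-labelled library, 18.6 in CD44-/- and 41.5 in wild type. Nectin1, an adhesion molecule, and Rgs12, a regulator of G-protein signalling, were nearest to Tnc, with 23 genes within 0.1. Sparc and Fn1 had 246 and 453 genes within 0.1, so their patterns were shared by many genes. Among the members that passed the filter, Tnc and Postn were nearest to each other, at a distance of 0.352. Of these members, Thbs2 lay farthest from its nearest member, Thbs1, at 1.01. With 3 libraries, likeness of pattern is a description only.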

How the data were processed

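Per the submitters' processing notes, the authors used RSEM with the mm10 build, and per the file headers they deposited, for each gene, RefSeq transcripts, a mean transcript length, an expected count (an estimated read number) and an FPKM value. Genes missing from a table were set to 0. Whether counting used strand is not stated. Symbols and coordinates came from RefSeq, GRCm38.p6.

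With 1 library per genotype, differences were described by the log2 ratio of FPKM + 1, called at 2-fold among genes reaching an FPKM of 1 in either library. Ratios without the added 1 carry exact conditional binomial (Clopper-Pearson) 95% intervals on rounded expected counts, from scipy 1.17.1. TMM factors came from edgeR 4.0.16. The steps were tested on simulated counts drawn around the wild-type library. Such counts hold counting error only and cannot show spread between cultures.

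The members, lists and motifs were chosen with earlier results of these data known, the motifs also after the promoters were read. All members are named. From each list, up to 4 genes per comparison with the highest absolute log2 ratio, and up to 3 markers with the highest FPKM, could be named, beside the genes nearest in pattern. Itgb1, Itgav, Tgfb1, Colec11, Cd5l, Sox9, Vwf and Wt1 were chosen outside it after their values were seen. Alternatives were another pseudocount, other filters, other scalings and a counting interval. The values of 1 listed gene are not reported here.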

Additional observations from a re-analysis of the deposited data

Results flagged for a closer look

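Thbs2 stood on opposite sides of wild type in the knockout-labelled libraries, with log2 ratios of FPKM + 1 of -1.30 in the TLR4-labelled library and 0.51 in CD44-/-. The log2 ratio of the TLR4-labelled library over CD44-/- was -1.81. With 1 library per genotype, the difference was not tested.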

How the results depend on the processing

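The counts of members at least 2-fold higher or lower stayed within 1.5 times their reported values under all 8 alternatives. With FPKM of at least 5 required, Cthrc1 and Thbs3 dropped out. Then 2 of 7 measured members were lower in each knockout-labelled library against wild type. The share of all genes past 2-fold under that filter was not computed, so nothing is drawn from those counts. Without a filter, the median log2 ratio over members was -0.34 in the TLR4-labelled library and -0.51 in CD44-/-, beside -0.56 and -0.67. Log2 ratios of single members were checked in comparisons where the member was measured, which leaves out Fap. They kept their sign except Spp1 in the TLR4-labelled library over wild type (0.01), which was -0.02 under median-of-ratios and TMM scaling. With 0.1 added to FPKM in place of 1, Cthrc1 had log2 ratios of -3.78 and -4.00 in the TLR4-labelled library and CD44-/-, beside -1.77 and -1.81, and Thbs3 had log2 ratios of 0.49 and 0.32 in the TLR4-labelled library and CD44-/-, beside 0.27 and 0.17. No paired analysis was possible because each genotype has 1 library. Depth limits Cthrc1, Fap and Thbs3, and spread between cultures cannot be measured here.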
